A study of Mus musculus with 65 samples.

Results

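Nascent transcription was followed at 64 mouse genes for subunits of RNA polymerase II, of Mediator and of the complexes built from TBP-associated factors. The genes were taken by name, as every symbol in the gene table of the A485 series that began with Polr2, or with Med or Taf and a digit. Where a symbol had several transcripts, the one with the most reads stood for it. The rule matched 66 of 15020 symbols, and 64 of these had a mean of at least 10 normalized reads, as had 12630 symbols in all. Polr2i, at a mean of 7.79, and the noncoding gene Med9os, at 3.09, fell below that limit, and the nearest genes above it were Med31 at 29.6 and Med11 at 32.8. All 64 genes passed the same filter in each of the 4 gene tables and were tested in each.

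All 65 samples were PRO-seq libraries of MEL cells, a murine erythroleukemia line, in which the corepressor Mtg16 (gene Cbfa2t3) carried an FKBP degradation tag and a 2XHA tag. The DMSO controls carried the tagged protein too, and the labels do not say whether the line was 1 clone. PRO-seq lets engaged polymerases add a biotin-tagged nucleotide in isolated nuclei, so that a read marks a polymerase at work and not the stored RNA. In the time course, cells received 250 nM dTAGV1, which sends the tagged protein to the proteasome and is called the degrader here, for 15 min, 30 min, 1 h or 2 h, or had 2 h of degrader and then 30 min, 1 h or 2 h of washout, against DMSO. In the A485 series, cells received both agents together, 10 µM A485 alone (which blocks the p300 and CBP acetyltransferases) or the degrader alone, each for 15 min, 30 min or 1 h, against DMSO. In the LBH589 series, 5 nM LBH589 (panobinostat, a histone deacetylase inhibitor) was given for 30 min or 1 h, against DMSO. In the LBH589 washout series, cells had 2 h of degrader and 1 h or 30 min of washout, and the table held no DMSO group. When LBH589 was added and removed in these cells is not stated in the labels. Groups held 3 libraries each, except 2 for the degrader at 2 h and 1 h of washout in the time course and for A485 and both agents at 30 min.

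Depth was 7453718 to 62384678 recovered reads per library in the gene tables. For 5 libraries of the time course, labelled degrader 1 h and degrader 2 h here, the library name says degrader and the title says A485. In all 5, Cbfa2t3 was higher than in every DMSO library of the same table, whereas A485 at 1 h left Cbfa2t3 lower than in every DMSO library of its own table. The time course table had 22 library names over 21 filled columns, so that 2 washout columns could not be tied to a library and were left out, and the washout groups at 30 min, 1 h and 2 h kept 2, 1 and 2 libraries. A pair of time course libraries, degrader 15 min replicate 2 and degrader 30 min replicate 3, stood apart from their groups, and counts of calls are given without them where they move. Nothing in the labels says that replicates were separate cultures, so p-values measure the spread between these libraries. Of 8 erythroid markers in the tables, 7 had a mean of at least 10 in each DMSO group, and their sum was 11083 to 18000.5 normalized reads per library. The sum was 2644 to 5009 for 3 megakaryocyte markers, 448 to 889.9 for 3 granulocyte and macrophage markers, 76.8 to 151 for 2 fibroblast and endothelial markers and 13.7 to 55.8 for 3 lymphoid markers.

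Mediator is a large coactivator that carries signals from DNA-bound factors to RNA polymerase II. Its head and middle modules touch the polymerase, its tail is the main landing place for activators, and a separable kinase module, built on Med12 or Med12l and Med13 or Med13l together with Cdk8 or Cdk19 and cyclin C, can bind to the core and keep the polymerase away. TFIID, made of TBP and most of the Taf proteins, recognises core promoters and starts assembly of the initiation complex, Taf5l and Taf6l belong to the acetyltransferase complex SAGA, and Taf1a to Taf1d belong to SL1, the TBP complex of RNA polymerase I. Polr2e, Polr2f, Polr2h, Polr2k and Polr2l are shared by the 3 nuclear polymerases, and Polr2m (Gdown1) is a substoichiometric partner that makes polymerase II respond to Mediator.

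The promoters of 4 genes are printed to show the start sites of pairs called higher together in the time course. These were Med12l and Med13l with the degrader and Polr2e and Polr2l after 2 h of washout. In other series the genes of a pair were not always called together. Each promoter runs from 250 bases before to 50 bases after the annotated start in RefSeq (GRCm38.p6), which gave a promoter for 54 of the 64 genes. Capitals mark every match, on either strand, to 7 motifs, which could overlap. The TATA box was TATAAA, and the ETS site was searched as CCGGAAG. A match to a GATA site was AGATAA, and one to a RUNX site was TGTGGT. The E-box was CAGNTG, the GC box GGGCGG, and the last motif was the CCAAT box.
Med12l lies at chr3:59006728-59007027, plus strand, and holds 1 GC box.
Med12l promoter: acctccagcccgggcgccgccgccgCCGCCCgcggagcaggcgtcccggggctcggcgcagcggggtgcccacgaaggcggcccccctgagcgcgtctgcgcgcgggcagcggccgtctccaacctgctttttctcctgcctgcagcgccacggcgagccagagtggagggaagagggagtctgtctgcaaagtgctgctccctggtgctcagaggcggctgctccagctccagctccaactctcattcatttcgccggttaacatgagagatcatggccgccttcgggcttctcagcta
Med13l lies at chr5:118560469-118560768, plus strand, and holds 4 GC boxes and 1 GATA site.
Med13l promoter: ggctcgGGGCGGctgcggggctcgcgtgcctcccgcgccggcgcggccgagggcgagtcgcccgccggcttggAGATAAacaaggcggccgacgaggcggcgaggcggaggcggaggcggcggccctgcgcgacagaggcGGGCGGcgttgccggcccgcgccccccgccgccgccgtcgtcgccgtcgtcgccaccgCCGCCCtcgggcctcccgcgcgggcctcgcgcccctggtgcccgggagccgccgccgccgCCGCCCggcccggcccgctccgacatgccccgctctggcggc
Polr2e lies at chr10:80039610-80039909, minus strand, and holds 3 GC boxes and 1 E-box.
Polr2e promoter: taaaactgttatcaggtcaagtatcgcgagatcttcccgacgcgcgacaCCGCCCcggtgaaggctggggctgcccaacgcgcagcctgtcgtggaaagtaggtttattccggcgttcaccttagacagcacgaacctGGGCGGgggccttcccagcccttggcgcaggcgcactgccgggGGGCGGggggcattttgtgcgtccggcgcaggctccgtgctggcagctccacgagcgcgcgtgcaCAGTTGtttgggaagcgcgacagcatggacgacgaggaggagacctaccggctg
Polr2l lies at chr7:141475104-141475403, minus strand, and holds 3 GC boxes and 1 RUNX site.
Polr2l promoter: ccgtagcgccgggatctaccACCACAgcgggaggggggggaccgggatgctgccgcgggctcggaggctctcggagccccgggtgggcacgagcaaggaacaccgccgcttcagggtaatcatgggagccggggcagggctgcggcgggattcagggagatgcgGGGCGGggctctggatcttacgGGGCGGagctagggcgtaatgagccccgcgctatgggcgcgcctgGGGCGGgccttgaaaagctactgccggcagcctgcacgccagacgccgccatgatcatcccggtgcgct
Over the 54 promoters, a GC box was found in 38, an ETS site in 18, a GATA site in 4, a RUNX site in 7, an E-box in 21, a CCAAT box in 20 and a TATA box in 9. Of all 27025 promoters of the table, 35.9% held a GC box, 9.1% an ETS site, 11.4% a GATA site, 16.9% a RUNX site, 51.1% an E-box, 37.9% a CCAAT box and 14.2% a TATA box. The 54 promoters had a median GC content of 58.5%, against 52.7% for all. A match is a description of the letters only.

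In untreated cells the genes of these complexes were not transcribed at 1 level. Per kb of gene span in the reference, and in DMSO of the A485 series (n = 3), Taf1d stood first at 1010.0 ± 42.4 normalized reads per kb (SD). Its span holds 6 snoRNA genes, and how reads over them were counted is not given in the sources used here. Med17, the head subunit that scaffolds the module, followed at 329 ± 3.79 per kb, then Polr2m at 123 ± 4.91. Polr2a, the catalytic subunit, stood at 81.1 ± 2.27 per kb, and Polr2b, the second large subunit, at 41.7 ± 1.34. The lowest were Med31 at 6.11 ± 1.81 and Med12l at 1.37 ± 0.14 per kb. By role, the median was 48.2 per kb over 9 Mediator middle genes, 43.4 over 12 head genes, 41.5 over 6 genes of polymerase II alone, 33.9 over 5 genes of shared subunits and 24.4 over 15 TFIID genes. These groups overlap widely, since TFIID ran from 7.49 to 81.3 per kb and the head module from 14.4 to 329.

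With the degrader, Med12l and Med13l of the Mediator kinase module rose at every time of the time course, and Med12 and Med13 were not called there. The test was limma on log2(value + 1) over all genes, called at an adjusted p under 0.05. Of the 64 genes, 3 were higher and 0 lower at 15 min, where 5.89% of all genes were called higher and 1.04% lower. At 30 min 4 were higher and 1 lower, against 8.69% and 5.17% of all genes. At 1 h 2 were higher and 0 lower, against 8.13% and 3.15%, and at 2 h 3 were higher and 0 lower, against 6.77% and 2.63%. In this fit the share of these genes that rose was below that of all genes at each time, and their median log2 change was between -0.02 and 0.04.

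Med12l, the paralog of Med12 in the kinase module, had 1757, 1347 and 1217 normalized reads after 15 min of degrader, against 697, 586 and 570.1 in DMSO. It had 1367, 1407 and 1827 at 30 min, 1703, 1581 and 1636 in the libraries labelled degrader 1 h and 1353 and 1222 in those labelled degrader 2 h. Every degrader library was above every DMSO library. The log2 change was 1.21 (SE 0.13, limma adjusted p = 1.05e-05) at 15 min, 1.30 (SE 0.13, limma adjusted p = 3.17e-06) at 30 min, 1.41 (SE 0.13, limma adjusted p = 1.05e-06) at 1 h and 1.06 (SE 0.14, limma adjusted p = 0.0001) at 2 h. In bulk cells, more cells that transcribe the gene and more transcription per cell cannot be told apart. Med12l spans 313 kb, and P2ry14 lies within that span. P2ry14 differed by 1.26 at 1 h of degrader (a log2 difference of means), and whether its reads also entered the count of Med12l is not given in the sources used here.

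Med13l, the paralog of Med13, had 16716, 19706 and 16504 normalized reads at 15 min, against 15285, 14639 and 14368 in DMSO. In the libraries labelled degrader 1 h it had 20495, 20444 and 20570.5, and in those labelled degrader 2 h 21237 and 20879.8. No degrader library overlapped DMSO. The log2 change was 0.25 (SE 0.06, limma adjusted p = 0.0102) at 15 min, 0.38 (SE 0.06, limma adjusted p = 0.000248) at 30 min, 0.47 (SE 0.06, limma adjusted p = 2.22e-05) at 1 h and 0.51 (SE 0.06, limma adjusted p = 4.37e-05) at 2 h. With only the 15 min and DMSO libraries in the fit, the 15 min change was the same and its limma adjusted p was 0.122. Med12 changed by 0.04 and Med13 by -0.15 at 1 h, neither of them called. These comparisons share their DMSO libraries, so the times are not independent of each other.

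**Figure D1:**
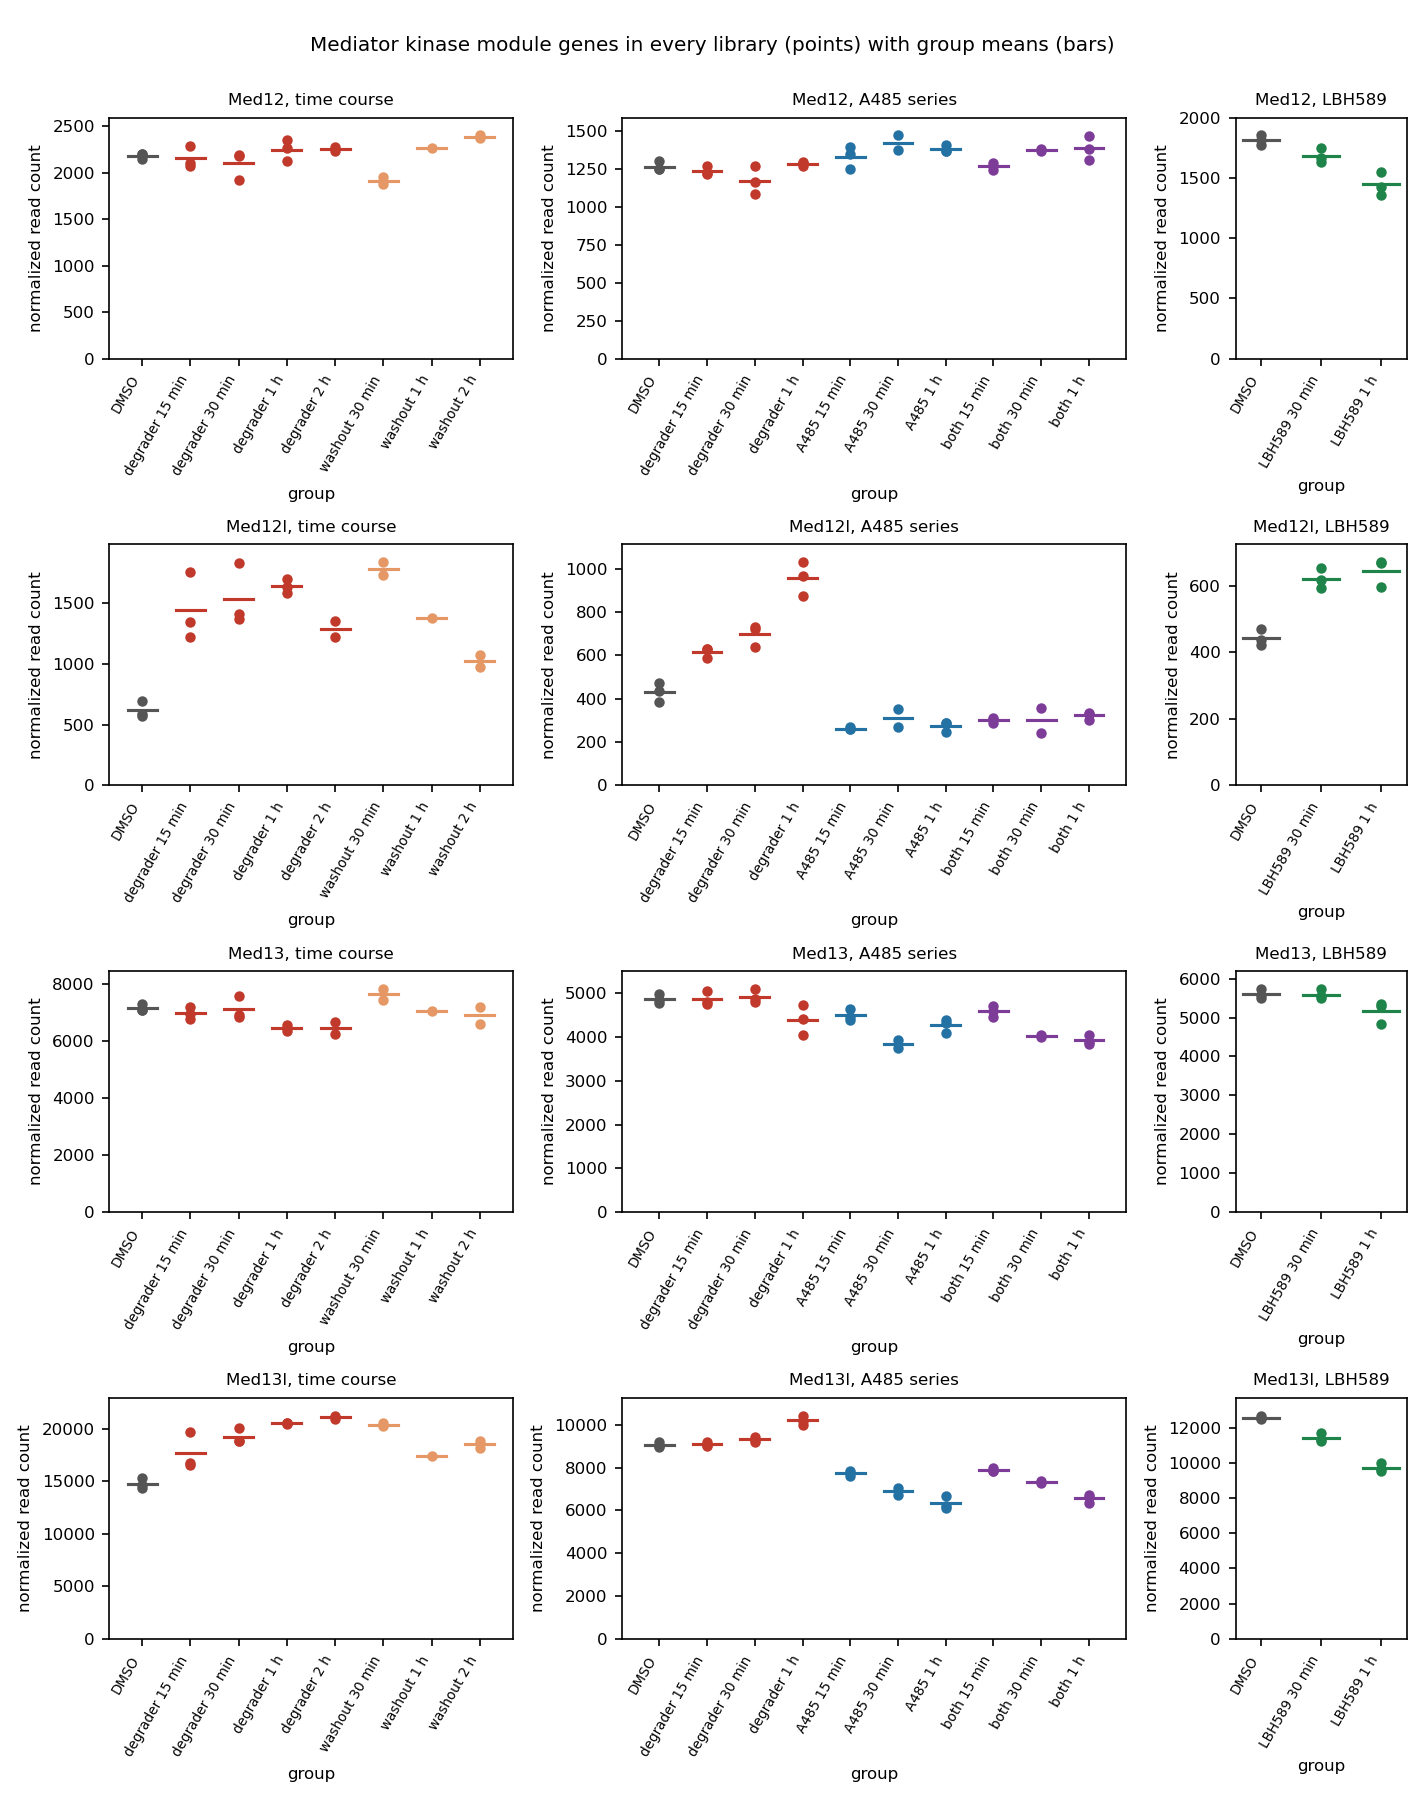
Normalized read count (y axis, from 0) of Med12, Med12l, Med13 and Med13l in every library, by group (x axis), in the time course, the A485 series and the LBH589 series; points are libraries and bars are group means. Med12l and Med13l sit above DMSO in all degrader groups of the time course and below DMSO in all A485 groups, while LBH589 leaves Med12l higher and Med13l lower.

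Med20, a head subunit, and Med7, which lies in the middle module, made up the other rises. Med20 had 2013 and 2037 normalized reads at 2 h, against 1437, 1486 and 1507 in DMSO, a log2 change of 0.46 (SE 0.11, limma adjusted p = 0.0126), and at 30 min its change was 0.41 (SE 0.10, limma adjusted p = 0.0104). The 30 min group included replicate 3, which stood apart at 2418 against 1751 and 1793. Leaving out either library of the 2 h group ended the 2 h call, at limma adjusted p of 0.098 and 0.111. Med20 shares its span with Gm20517, which had far more reads, so its count is uncertain. Med7 had 842, 869 and 789 at 15 min, against 598, 594 and 647 in DMSO, and its log2 change was 0.44 (SE 0.13, limma adjusted p = 0.0431) at 15 min and 0.40 (SE 0.13, limma adjusted p = 0.0451) at 30 min. Both genes stood above DMSO in all libraries of those groups. Taf9b, a paralog of Taf9, fell at 30 min by 0.41 (SE 0.13, limma adjusted p = 0.0449) on the log2 scale. That call ended in 12 of 16 alternative fits, among them edgeR at an adjusted p of 0.0528, the fit of only the compared groups at a limma adjusted p of 0.2 and the fit without the libraries that stood apart at 0.0735, within a range of 0.0334 to 0.2. The Med7 call at 15 min ended whichever of the 6 compared libraries was left out, at limma adjusted p of 0.0644 to 0.153, and the call at 30 min ended in 9 of 16 alternative fits, at up to 0.249.

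Without the libraries that stood apart, more of the 64 genes were called: 6 higher and 17 lower at 15 min, 8 higher and 4 lower at 1 h, and 12 higher and 1 lower at 2 h. In the same fits more of all genes were called too, 14.1% higher and 13.7% lower at 15 min, 15.1% and 15.1% at 1 h, and 17% and 14% at 2 h. At 30 min, leaving out degrader replicate 1 or replicate 2 gave 11 and 12 calls, and leaving out DMSO replicate 2 or replicate 3 gave 3 each. Leaving out degrader 15 min replicate 2 alone gave 2 higher and 3 lower at 15 min. The shares of all genes called in fits that left out 1 library are not given here. Counts in the time course therefore moved by over 1.5 times with these libraries, while Med12l was called higher in all these fits. With only the compared groups in the fit, the Med13l call at 15 min ended, at a limma adjusted p of 0.122.

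The A485 series held its own degrader libraries and its own DMSO, and there Med12l rose again while more of the genes fell than rose. At 15 min 1 of 64 was higher and 5 lower, against 10.9% higher and 5.8% lower of all genes. At 30 min 1 was higher and 8 lower, against 11.3% and 9.23%, and at 1 h 5 were higher and 9 lower, against 14.7% and 10.9%. The members' share of rises was below that of all genes at each time, and their share of falls was 7.8% at 15 min, 12.5% at 30 min and 14.1% at 1 h. Med12l had 629, 631 and 587 normalized reads at 15 min, 722, 641 and 733 at 30 min and 966, 1032 and 877 at 1 h, against 383, 474 and 434 in DMSO. All degrader libraries were above DMSO, and the log2 change was 0.52 (SE 0.11, limma adjusted p = 0.000566) at 15 min, 0.70 (SE 0.11, limma adjusted p = 7.59e-06) at 30 min and 1.16 (SE 0.11, limma adjusted p = 2.57e-10) at 1 h. P2ry14, within its span, differed by 1.15 at 1 h.

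The other rises at 1 h were small. Med13l had 10436, 10207 and 10003 normalized reads at 1 h, against 9193, 8951 and 9022 in DMSO, a log2 change of 0.17 (SE 0.03, limma adjusted p = 5.8e-05). It was not called at 15 min (0.01) or 30 min (0.04). Med20 changed by 0.26 (SE 0.05, limma adjusted p = 0.00034), Taf6l by 0.23 (SE 0.07, limma adjusted p = 0.0118) and Med17 by 0.17 (SE 0.04, limma adjusted p = 0.000567). In each of these 3 genes the groups did not overlap. Med13 was lower at 1 h, with a change of -0.15 (SE 0.04, limma adjusted p = 0.00706).

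Among the falls, Taf9, a TFIID and SAGA subunit with a histone fold, had 101, 106 and 129 normalized reads at 1 h of degrader, against 196, 180.3 and 158 in DMSO, a log2 change of -0.67 (SE 0.17, limma adjusted p = 0.00394). Taf9 shares its whole span with Ak6, whose value differed by -0.33, and the time course gave -0.02 for Taf9 at 1 h with no call. Taf7, the TFIID subunit that can hold back the Taf1 acetyltransferase, had 54.4, 33.7 and 41.0 against 62.4, 66.2 and 66.7 in DMSO, a change of -0.61 (SE 0.23, limma adjusted p = 0.0443). Taf7 rests on few reads, and it was at -0.25 in the time course, not called. It shares its whole span with Gm37013, Gm38666 and Gm38667. Whether their reads also entered its count is not given in the sources used here.

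Polr2g, part of the stalk of polymerase II, fell to 149, 163 and 172 normalized reads at 1 h of degrader, against 240.4, 218 and 215 in DMSO, a log2 change of -0.48 (SE 0.10, limma adjusted p = 0.000515). Polr2e changed by -0.45 (SE 0.12, limma adjusted p = 0.00555). The groups of both genes did not overlap. At 1 h of degrader in the time course, none of the 6 genes of polymerase II alone or the 5 of shared subunits was called. The lowest changes there were -0.22 and -0.23. Med14, the backbone that links the Mediator modules, fell at each time, by 0.17, 0.12 and 0.22 on the log2 scale. Med27 (-0.24, -0.25 and -0.12) and Taf15, an RNA-binding protein of the FET family (-0.21, -0.15 and -0.20), were lower and called at each time as well. In the time course neither gene was called, with changes of -0.08 at 15 min, 0.12 at 30 min, 0.09 at 1 h and 0.18 at 2 h for Med27, and -0.08, 0.17, 0.04 and 0.03 for Taf15. Polr2a was lower at 30 min, with a change of -0.20 (SE 0.05, limma adjusted p = 0.00311), and not called at 15 min (-0.12) or 1 h (-0.01). Earlier falls were Taf9 (-0.53) and Polr2b (-0.19) at 15 min, and Med25 (-0.21), Taf4 (-0.14) and Med23 (-0.13), a tail subunit, at 30 min. At 15 min, edgeR on recovered reads called 1 gene higher and 11 lower, against 11.6% and 8.07% of all genes, and a fit of only the 15 min and DMSO libraries called 4 and 12, against 16.7% and 11.2%. At 30 min, leaving out DMSO replicate 4 left 1 higher and 3 lower.

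After 2 h of washout, the genes that rose were short ones, and 8 of these 15 encode polymerase subunits. Against the libraries labelled degrader 2 h, 15 of 64 genes were higher after 2 h of washout and 0 lower, where 8.98% of all genes were higher and 8.3% lower. The washout cells had been kept 2 h longer, and the labels name no washed DMSO group. Removal of the degrader, washing and time therefore cannot be told apart. Of 5 shared polymerase subunits 4 rose, and of 6 subunits of polymerase II alone 4 rose. The head and the middle module had 3 rises each (of 12 and 9 genes), TFIID 1 of 15, and the kinase module, the tail, SAGA and SL1 had 0. The median over the 64 genes was 0.15, against -0.005 over all genes.

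Polr2e had 552 and 573 normalized reads after 2 h of washout, against 213 and 196 in degrader 2 h. The log2 change was 1.45 (SE 0.26, limma adjusted p = 0.00189), and DMSO had 239.8, 201 and 196, so the washout libraries were above both groups. Polr2l had 547 and 633 against 236 and 301, a change of 1.14 (SE 0.30, limma adjusted p = 0.017). Polr2k had 149.7 and 125 against 57.0 and 73.7, a change of 1.07 (SE 0.26, limma adjusted p = 0.0123). In these 3 genes no washout library overlapped a degrader library.

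Polr2h changed by 0.98 (SE 0.27, limma adjusted p = 0.0198), and Polr2d, the partner of Polr2g in the stalk, by 0.98 (SE 0.26, limma adjusted p = 0.0171). In Mediator, Med18, a head subunit, had 587 and 582 normalized reads after washout, against 296 and 301 in degrader 2 h, a change of 0.97 (SE 0.24, limma adjusted p = 0.0129). The remaining 9 were Polr2g, Med22, Med10, Taf6, Polr2j, Med4, Med21, Med28 and Polr2c, with changes from 0.36 to 0.79. Med31 had as large a change as Polr2e, 1.45 (SE 0.51, limma adjusted p = 0.0599), without a call, on 78.4 and 74.5 against 18.8 and 39.4 reads. Polr2a (0.03), Polr2b (0.07), Med1 (0.02) and Taf10 (0.74) were not called. Med12l, still at 978 and 1069 after washout against 1353 and 1222 in degrader 2 h, changed by -0.33 (SE 0.16, limma adjusted p = 0.162), and Med13l by -0.19 (SE 0.07, limma adjusted p = 0.0794). At 30 min of washout Med12l had 1838 and 1729 reads and at 1 h 1374, so every washout library was above DMSO.

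The 15 genes that rose spanned 3.0 to 13.8 kb, and the 49 others 1.48 to 313 kb with a median of 18.98 kb. Of 26 genes under 10 kb, all 26 had a change above 0 and 14 were called, with a median of 0.61. The 25 genes of 10 to 50 kb had a median of 0.03 with 1 call, and the 13 of 50 kb or more a median of -0.01 with 0 calls. Across the 64 genes, Spearman's rho between span and change was -0.78, and across the 12709 genes of the table with a span it was -0.43. These are descriptions over genes measured in the same libraries, without a p. Genes under 10 kb were higher as a class in the whole table (median 0.30) and genes of 50 kb or more lower (median -0.12) too. For the change at 2 h of degrader against DMSO, rho was 0.02 over the 64 genes and -0.04 over all.

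Short genes stood higher in single libraries of other groups as well. Relative to the DMSO mean, the median over the 26 genes under 10 kb was 0.57 and 0.60 in the 2 h washout libraries, 0.51 in the 1 h washout library and 0.35 and 0.27 in the 30 min washout libraries. In degrader 15 min replicate 2 it was 0.26, against -0.16 and -0.18 in the other libraries of that group, and in degrader 30 min replicate 3 it was 0.22, against -0.07 and -0.02. DMSO libraries lay between -0.07 and 0.05. The part of this displacement in the washout result was not tested. The count rests on 2 libraries in each group. Leaving out either degrader 2 h library left 4 genes, and leaving out either washout library left 3, all higher. Without the libraries that stood apart, 31 genes were higher and 5 lower, against 22.2% and 20.8% of all genes, and with only the 4 compared libraries in the fit 33 and 6, against 25.9% and 23.6%.

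**Figure D2:**
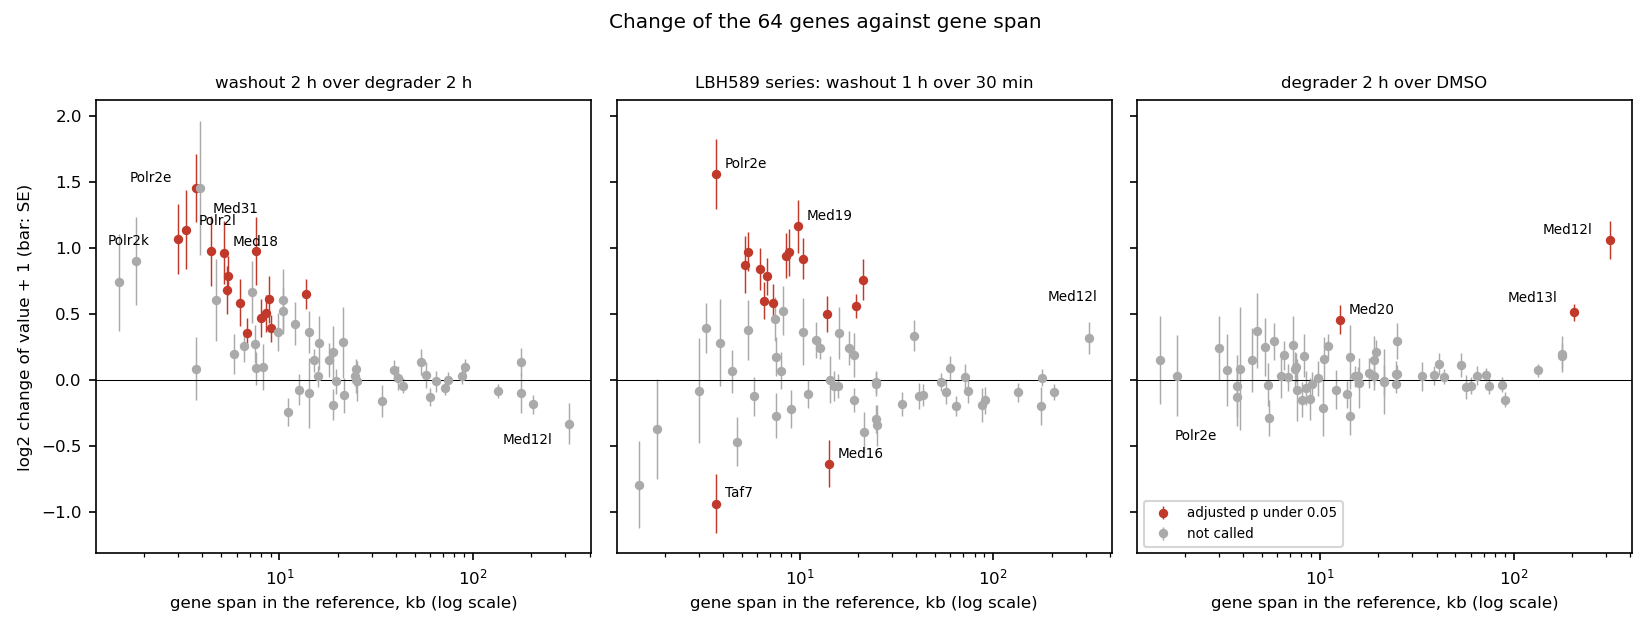
Log2 change with SE (y axis) of the 64 genes against gene span in kb (x axis, log scale), for 2 h of washout over degrader 2 h, for 1 h over 30 min of washout in the LBH589 washout series, and for degrader 2 h over DMSO; red points are called. In the first panel all 26 genes under 10 kb lie above 0, in the second 18 of them do, and in the third called genes are Med12l, Med13l and Med20.

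With A485, called changes among the 64 genes went in both directions at each time, as they did over all genes. At 15 min 24 of 64 were higher and 12 lower, against 25.8% higher and 29.3% lower of all genes. At 30 min 21 were higher and 12 lower, against 27.1% and 31%, and at 1 h 24 were higher and 13 lower, against 29.4% and 33.2%. The members thus had a larger share of rises (37.5%, 32.8% and 37.5%) and a smaller share of falls (18.8%, 18.8% and 20.3%) than all genes at the 3 times, a difference that was not tested. Leaving out 1 library at a time kept the count between 34 and 37 at 1 h. The times share their DMSO libraries.

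Polr2e fell most. It had 121, 116 and 99.2 normalized reads at 15 min, 98.3 and 106 at 30 min and 112, 105 and 113 at 1 h of A485, against 167, 199.7 and 202 in DMSO. No A485 library overlapped DMSO, and the log2 change was -0.75 (SE 0.12, limma adjusted p = 2.85e-06), -0.88 (SE 0.14, limma adjusted p = 1.16e-06) and -0.78 (SE 0.12, limma adjusted p = 1.16e-06) at the 3 times. Polr2l, a small shared subunit, was called at 1 h alone and fell there to 63.2, 69.0 and 92.7 against 117, 119 and 99.6 in DMSO, a change of -0.58 (SE 0.18, limma adjusted p = 0.00453). The other shared subunits did not move together, since Polr2f was higher at 15 min (0.48) and at 30 min, with a change of 0.58 (SE 0.09, limma adjusted p = 3e-06).

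In the kinase module, 3 of 4 genes fell at each time. Med12l had 259.8, 258 and 269 normalized reads at 15 min, 268 and 355 at 30 min and 244, 289 and 289 at 1 h of A485, against 383, 474 and 434 in DMSO, a log2 change of -0.71 (SE 0.11, limma adjusted p = 1.08e-06), -0.47 (SE 0.12, limma adjusted p = 0.00103) and -0.65 (SE 0.11, limma adjusted p = 3.2e-06). Without A485 30 min replicate 1 the 30 min change was -0.27, with a limma adjusted p of 0.113. Med13l fell to 6695, 6095 and 6231 at 1 h, against 9193, 8951 and 9022 in DMSO, and its change was -0.23 at 15 min, -0.39 at 30 min and -0.52 (SE 0.03, limma adjusted p = 3.51e-16) at 1 h. Med13 fell by 0.11, 0.34 and 0.19 on the log2 scale. Med12 was the exception, with 0.13 (SE 0.05, limma adjusted p = 0.0307) at 1 h. P2ry14 within Med12l differed by -1.52 at 1 h.

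Med7 and Med20, each called higher with the degrader at some times of the time course, fell with A485. Med7 had 370.4, 408 and 339.8 normalized reads at 1 h, against 551, 597 and 548 in DMSO, a change of -0.60 (SE 0.11, limma adjusted p = 2.06e-05). Med20 had 715, 683 and 692 against 1003, 1086 and 1049, a change of -0.59 (SE 0.05, limma adjusted p = 1.93e-11), and Gm20517, which shares its span, differed by -0.95. Med14 fell by 0.26 at 15 min, 0.47 at 30 min and 0.29 at 1 h. In TFIID, Taf9 changed by -0.63 (SE 0.17, limma adjusted p = 0.00203) and Taf12, another histone-fold subunit of TFIID and SAGA, by -0.44 (SE 0.07, limma adjusted p = 3.53e-06) at 1 h. Ak6, which shares the whole span of Taf9, differed by -0.31 at 1 h of A485, so the Taf9 count is uncertain. Taf4 fell by 0.13 and the SAGA subunit Taf5l by 0.11.

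The rises under A485 took in the Mediator tail, SL1 and the large polymerase subunits. All 5 tail genes were higher at 15 min and 4 of 5 at 1 h, among them Med25, a target of activators, with 1002, 980.1 and 963 normalized reads at 1 h, against 766, 730.2 and 738 in DMSO and a change of 0.40 (SE 0.06, limma adjusted p = 1.03e-06). Med15 rose by 0.18, Med23 by 0.32 and Med24 by 0.20, and Med16 was called at 15 min alone (0.29). Of the 4 SL1 genes 3 rose at 1 h, Taf1a by 0.29, Taf1b by 0.14 and Taf1c by 0.30. Taf9b, the paralog of Taf9, had 241, 209.8 and 253 against 160.0, 149 and 160.3, a change of 0.58 (SE 0.12, limma adjusted p = 7.5e-05). The counts of the pair thus moved in opposite directions, though that of Taf9 may include reads of Ak6, which was not tested. Taf6l rose by 0.55 (SE 0.07, limma adjusted p = 2.25e-08), in the same complex in which Taf5l fell.

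Taf2, a TFIID subunit that contacts the initiator, rose by 0.39 (SE 0.05, limma adjusted p = 8.7e-09), Taf1, the largest TFIID subunit, by 0.21 (SE 0.03, limma adjusted p = 1.13e-06), and Med30 by 0.41 (SE 0.08, limma adjusted p = 3.07e-05). All 3 were higher at each time. Med27, lower at each time with the degrader in the A485 series, rose by 0.38 (SE 0.04, limma adjusted p = 3.2e-10) at 1 h of A485. At 15 min the rises were led by Taf1a (0.54), Med30 (0.50), Polr2f and Taf11 (0.45). Polr2b had 1858, 1874 and 2135 normalized reads at 1 h, against 1673, 1569 and 1615 in DMSO, a change of 0.27 (SE 0.05, limma adjusted p = 6.29e-06). Polr2m changed by 0.30 (SE 0.06, limma adjusted p = 6.92e-05) and Polr2c by 0.36 (SE 0.09, limma adjusted p = 0.000741). Polr2a was the 1 gene called in opposite directions, with -0.13 (SE 0.05, limma adjusted p = 0.0211) at 15 min, 0.00 at 30 min and 0.20 (SE 0.05, limma adjusted p = 0.000705) at 1 h.

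**Figure D3:**
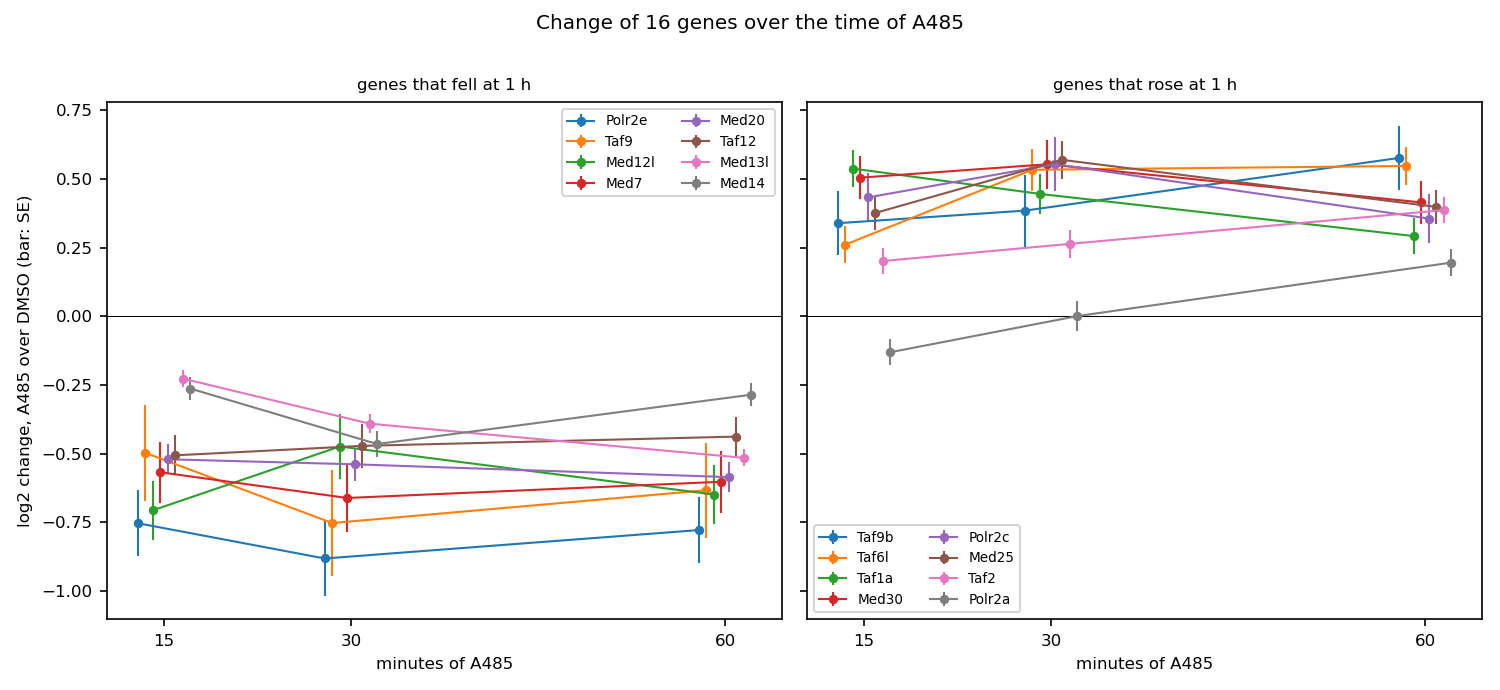
Log2 change of A485 over DMSO (y axis, bars are SE) against minutes of A485 (x axis) for 8 genes that fell and 8 that rose at 1 h. Polr2e lies at -0.75 at 15 min and -0.78 at 1 h, Med13l falls further with time, and Polr2a lies below 0 at 15 min and above 0 at 1 h.

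The degrader given on top of A485 moved 2 of the 64 genes past the threshold. Against A485 alone at 1 h, both agents together gave 1 gene higher and 1 lower, where 4.56% of all genes were higher and 2.34% lower. Med20 had 799, 829 and 799 normalized reads with both agents, against 715, 683 and 692 with A485 alone, a change of 0.22 (SE 0.05, limma adjusted p = 0.00972). Med14 had 3093, 2958 and 3038 against 3394, 3476 and 3472, a change of -0.19 (SE 0.04, limma adjusted p = 0.00303). Neither pair of groups overlapped. The Med20 call ended without replicate 2 of both agents, at a limma adjusted p of 0.0595, and with only the compared groups in the fit, at 0.0784.

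Whether A485 altered the response to the degrader at 1 h was tested with an interaction term. It subtracts the log2 change of degrader over DMSO from that of both agents over A485. The term was above 0 for 2 genes and below 0 for 2, against 4.99% and 6.54% of all genes. Med12l had 331, 334 and 303 normalized reads with both agents against 244, 289 and 289 with A485, a change of 0.24 (SE 0.11, limma adjusted p = 0.195), whereas the degrader alone changed it by 1.16. The interaction was -0.92 (SE 0.15, limma adjusted p = 7.92e-05). For Taf9 it was 0.77 (SE 0.25, limma adjusted p = 0.0374), for Taf6l -0.33 (SE 0.10, limma adjusted p = 0.0251) and for Med15 0.15 (SE 0.05, limma adjusted p = 0.0431). Taf9 was lower with the degrader alone and not called for both agents over A485 (0.10). Leaving out 1 library at a time gave 1 to 5 genes with an interaction. The Med12l call held in all 19 alternative fits, whereas the Med15 call ended in 12 of them, the Taf9 call in 8 and the Taf6l call in 4. The count fell to 1 without DMSO replicate 5, degrader replicate 4 or A485 replicate 3, and to 2 without DMSO replicate 4, degrader replicate 5 or any of the 3 libraries of both agents.

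LBH589 for 30 min changed 22 of the 64 genes and for 1 h 37. At 30 min 10 were higher and 12 lower, against 17.8% higher and 21.9% lower of all genes. At 1 h 15 were higher and 22 lower, against 32.4% and 34.6%, so that the share of falls among the 64 (34.4%) was near that of all genes. Med16, a tail subunit, had 280.4, 264 and 252 normalized reads at 1 h, against 539.8, 579.6 and 540.0 in DMSO. The groups were far apart, with a log2 change of -1.06 (SE 0.07, limma adjusted p = 1.82e-13), while at 30 min the change was -0.11 and not called. Med24, which neighbours Med16 in the tail, fell to 800.0, 839 and 784 against 1157, 1172 and 1079, a change of -0.49 (SE 0.05, limma adjusted p = 2.25e-09).

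At 30 min the falls were led by Med31, with 13.1, 30.3 and 26.6 normalized reads, against 30.4, 45.1 and 34.8 in DMSO, a change of -0.70 (SE 0.27, limma adjusted p = 0.0378), followed by Taf1c, Polr2h (-0.28), Taf4 (-0.27), Taf6l (-0.25) and Med22 (-0.22). The rises at 30 min after Med12l were Taf1b (0.22), Polr2g (0.22), Polr2b (0.18), Med4 (0.17) and Taf15 (0.16).

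Taf5l had 2224, 2229 and 2234 normalized reads at 1 h of LBH589, against 3361, 3371 and 3326 in DMSO, a log2 change of -0.59 (SE 0.03, limma adjusted p = 3.46e-15). Polr2m had 918, 939.6 and 1019.7 against 1359, 1418 and 1378, a change of -0.53 (SE 0.05, limma adjusted p = 3.29e-11). Both groups were tight and did not overlap. Taf1c changed by -0.33 at 30 min and -0.53 (SE 0.06, limma adjusted p = 4.57e-09) at 1 h, both called, and Taf1a and Taf1d of SL1 were lower at 1 h too (-0.27 and -0.23), although Taf1d was called higher at 30 min (0.11). Taf10, the TFIID and SAGA subunit, changed by -0.47 (SE 0.15, limma adjusted p = 0.00549) on a mean of 55.9 reads, and Taf4 by -0.23. Med1, the subunit bound by nuclear receptors and by Gata1, fell by 0.36 (SE 0.04, limma adjusted p = 8.51e-10) on the log2 scale. In the kinase module Med12 (-0.33), Med13 (-0.12) and Med13l (-0.37) fell.

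Med12l was higher instead, with 594, 653 and 617 normalized reads at 30 min and 671, 596 and 668 at 1 h of LBH589, against 436, 469.7 and 423 in DMSO. Its change was 0.49 (SE 0.06, limma adjusted p = 5.43e-07) at 30 min and 0.54 (SE 0.06, limma adjusted p = 1.37e-08) at 1 h, the largest rise among the 64 genes at both times, and P2ry14 differed by 0.63 at 1 h. Taf11 and Taf13, histone-fold partners in TFIID, rose by 0.46 (SE 0.10, limma adjusted p = 0.000116) and 0.44 (SE 0.09, limma adjusted p = 7.5e-05). Med4 rose by 0.41 and Med19 by 0.40. Polr2b had 2883, 2734 and 2767 at 1 h, against 2219, 2206 and 2282 in DMSO, a change of 0.32 (SE 0.04, limma adjusted p = 5.88e-09), whereas Polr2a changed by -0.17 (SE 0.04, limma adjusted p = 0.00012). The catalytic and the second large subunit were called in opposite directions. Polr2g rose by 0.34 and Polr2d by 0.20, with groups that overlapped in both, and Taf1 rose by 0.15.

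**Figure D4:**
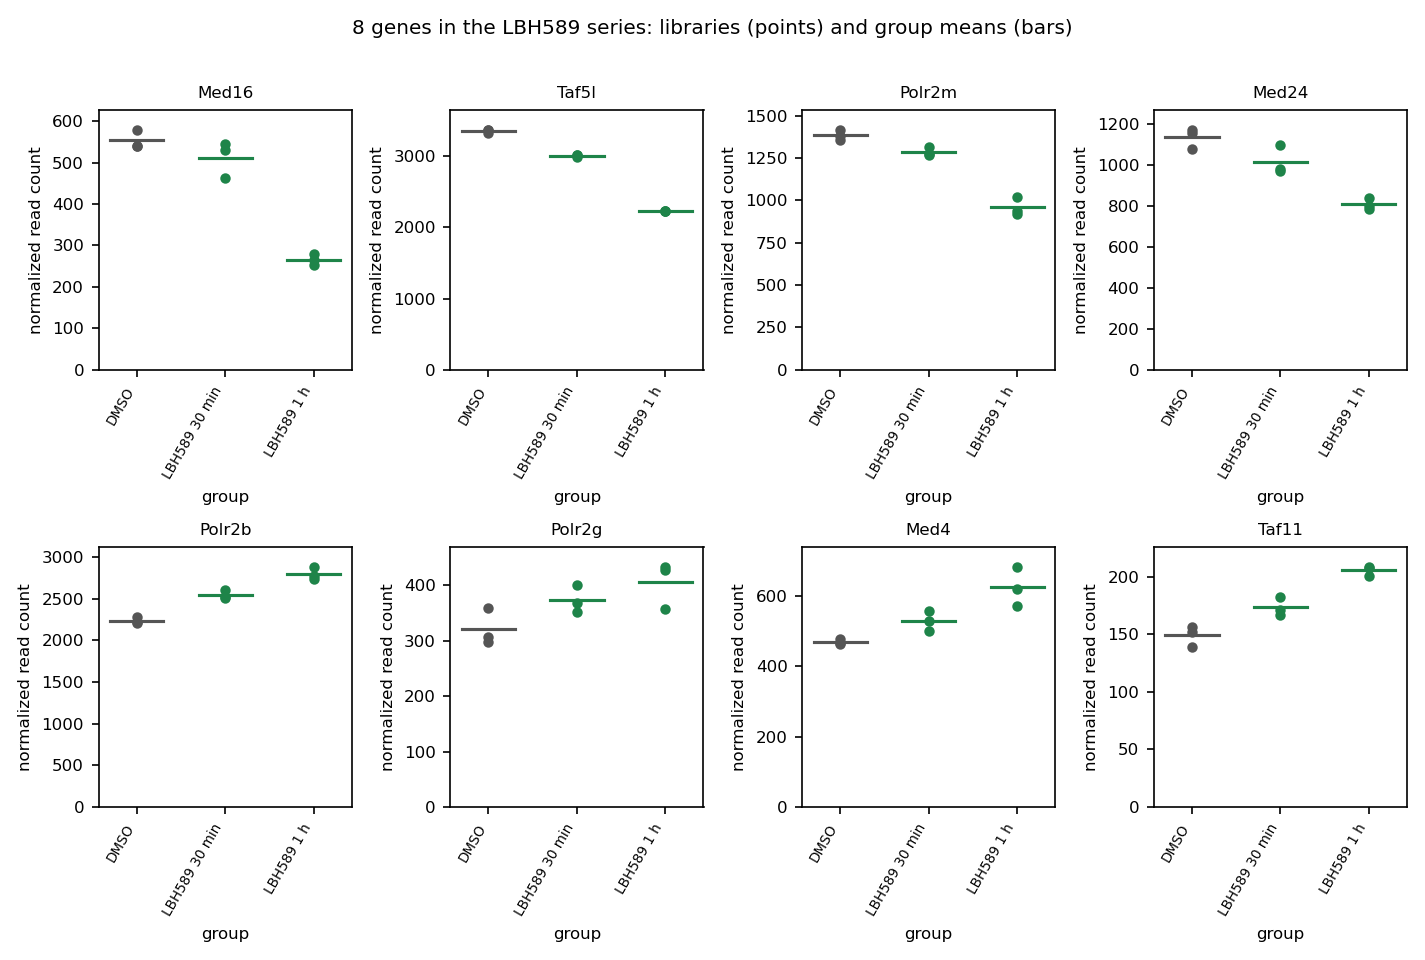
Normalized read count (y axis, from 0) of 8 genes in DMSO, LBH589 30 min and LBH589 1 h (x axis); points are libraries and bars are group means. Med16, Taf5l, Polr2m and Med24 fall with time, and Polr2b, Polr2g, Med4 and Taf11 rise.

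Of the 37 genes called at 1 h of A485 and the 37 called at 1 h of LBH589, which come from separate tables and controls, 24 were called in both. Of these, 12 were higher with A485 and lower with LBH589, and 4 were lower with A485 and higher with LBH589, Med12l, Med20, Polr2l and Taf12. The other 8 moved the same way, 5 lower and 3 higher. The 24 genes were 64.9% of each list, and 16 of them moved in opposite directions. Over all 12402 genes tested in both tables, 5511 were called in both, 70.3% of the genes called with A485 and 65.9% of those called with LBH589, and 51.2% of the 5511 moved in opposite directions. The difference between the members and all genes was not tested. At 30 min of LBH589, leaving out DMSO replicate 8 gave 10 calls and leaving out LBH589 replicate 2 gave 14, against 22.

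In the LBH589 washout series, 1 h of washout was set against 30 min, and 14 genes were higher and 2 lower, where 13.2% of all genes were higher and 10.1% lower. Polr2e had 265, 258 and 305 normalized reads at 1 h, against 147, 63.1 and 86.0 at 30 min, a log2 change of 1.56 (SE 0.26, limma adjusted p = 0.00454). Med19 had 219, 161 and 190.3 against 96.0, 65.6 and 93.0, a change of 1.16 (SE 0.20, limma adjusted p = 0.00478). Polr2g, at 233, 243 and 246 against 136, 128 and 105, changed by 0.97 (SE 0.15, limma adjusted p = 0.00325). No library at 1 h overlapped one at 30 min in these 3 genes. Taf6 (0.97), Med4 (0.94), Polr2f (0.92) and Med18 (0.87) rose as well, and Med17 by 0.56.

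Taf7 fell to 41.6, 61.9 and 41.1 normalized reads at 1 h of washout, against 92.8, 87.9 and 94.0 at 30 min, a change of -0.94 (SE 0.22, limma adjusted p = 0.0156). The whole span of Taf7 is shared with other genes, so its count is uncertain. Med16 had 259.8, 326 and 189 against 388, 402 and 386, a change of -0.64 (SE 0.18, limma adjusted p = 0.0291). Of the 14 genes that rose here and the 15 that rose after 2 h of washout in the time course, 8 were the same: Polr2c, Polr2e, Polr2g, Polr2j, Med4, Med10, Med18 and Taf6. These were 57.1% and 53.3% of the lists, against 22.5% and 32.4% for the 366 genes that rose in both over all genes tested in both tables, a difference that was not tested. Short genes again stood higher, with a median of 0.39 over the 26 genes under 10 kb and 0.15 over all genes of that span, and rho between span and change was -0.26 over the 64 and -0.24 over all. Without 30 min replicate 2 the count was 9 and without 30 min replicate 3 it was 10, all higher.

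The partners of these complexes were read beside them. Of 25 general transcription factor and Mediator kinase genes, 8 were higher and 11 lower at 1 h of A485. At 1 h of LBH589, 8 were higher and 10 lower. Among all genes, 29.4% were higher and 33.2% lower at 1 h of A485, and 32.4% and 34.6% at 1 h of LBH589. Cdk8, the kinase of the module that holds Med12l, rose at 1 h of degrader in the A485 series by 0.59 (SE 0.11, limma adjusted p = 6.5e-05) and at 1 h of A485 by 0.37, and fell with LBH589 by 0.26. Its paralog Cdk19 went the other way, with -0.31 for A485 and 0.39 for LBH589, both called. Cdk8 had far more reads than Cdk19, with a DMSO mean of 27690 against 2237 in the A485 series. In the time course, the DMSO libraries of Cdk8 had 119643, 59274 and 64349 normalized reads, so they differed widely among themselves. Cyclin C (Ccnc) rose with A485 (0.23) and LBH589 (0.28). Of 15 genes of subunits found in polymerase I or III alone, 7 were higher and 2 lower at 1 h of A485. At 1 h of LBH589, 5 were higher and 6 lower, beside the same shares of all genes. Differences between these lists and all genes were not tested. Of the 64 genes, 3 were called in none of the 16 comparisons, Med11, Med26 and Taf5, the last a scaffold of TFIID. Med11 rests on few reads, at a mean of 32.8, and the share of all genes called in none is not given here. Med26, which links Mediator to elongation factors, changed by 0.07 at 1 h of degrader in the time course, -0.07 at 1 h of A485 and 0.05 at 1 h of LBH589, and Taf5 by -0.03, 0.05 and 0.02. Taf10 was called with LBH589 at 1 h and had a change of -0.69 at 1 h of A485 without a call, as had Taf7 (-0.33).

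**Figure D5:**
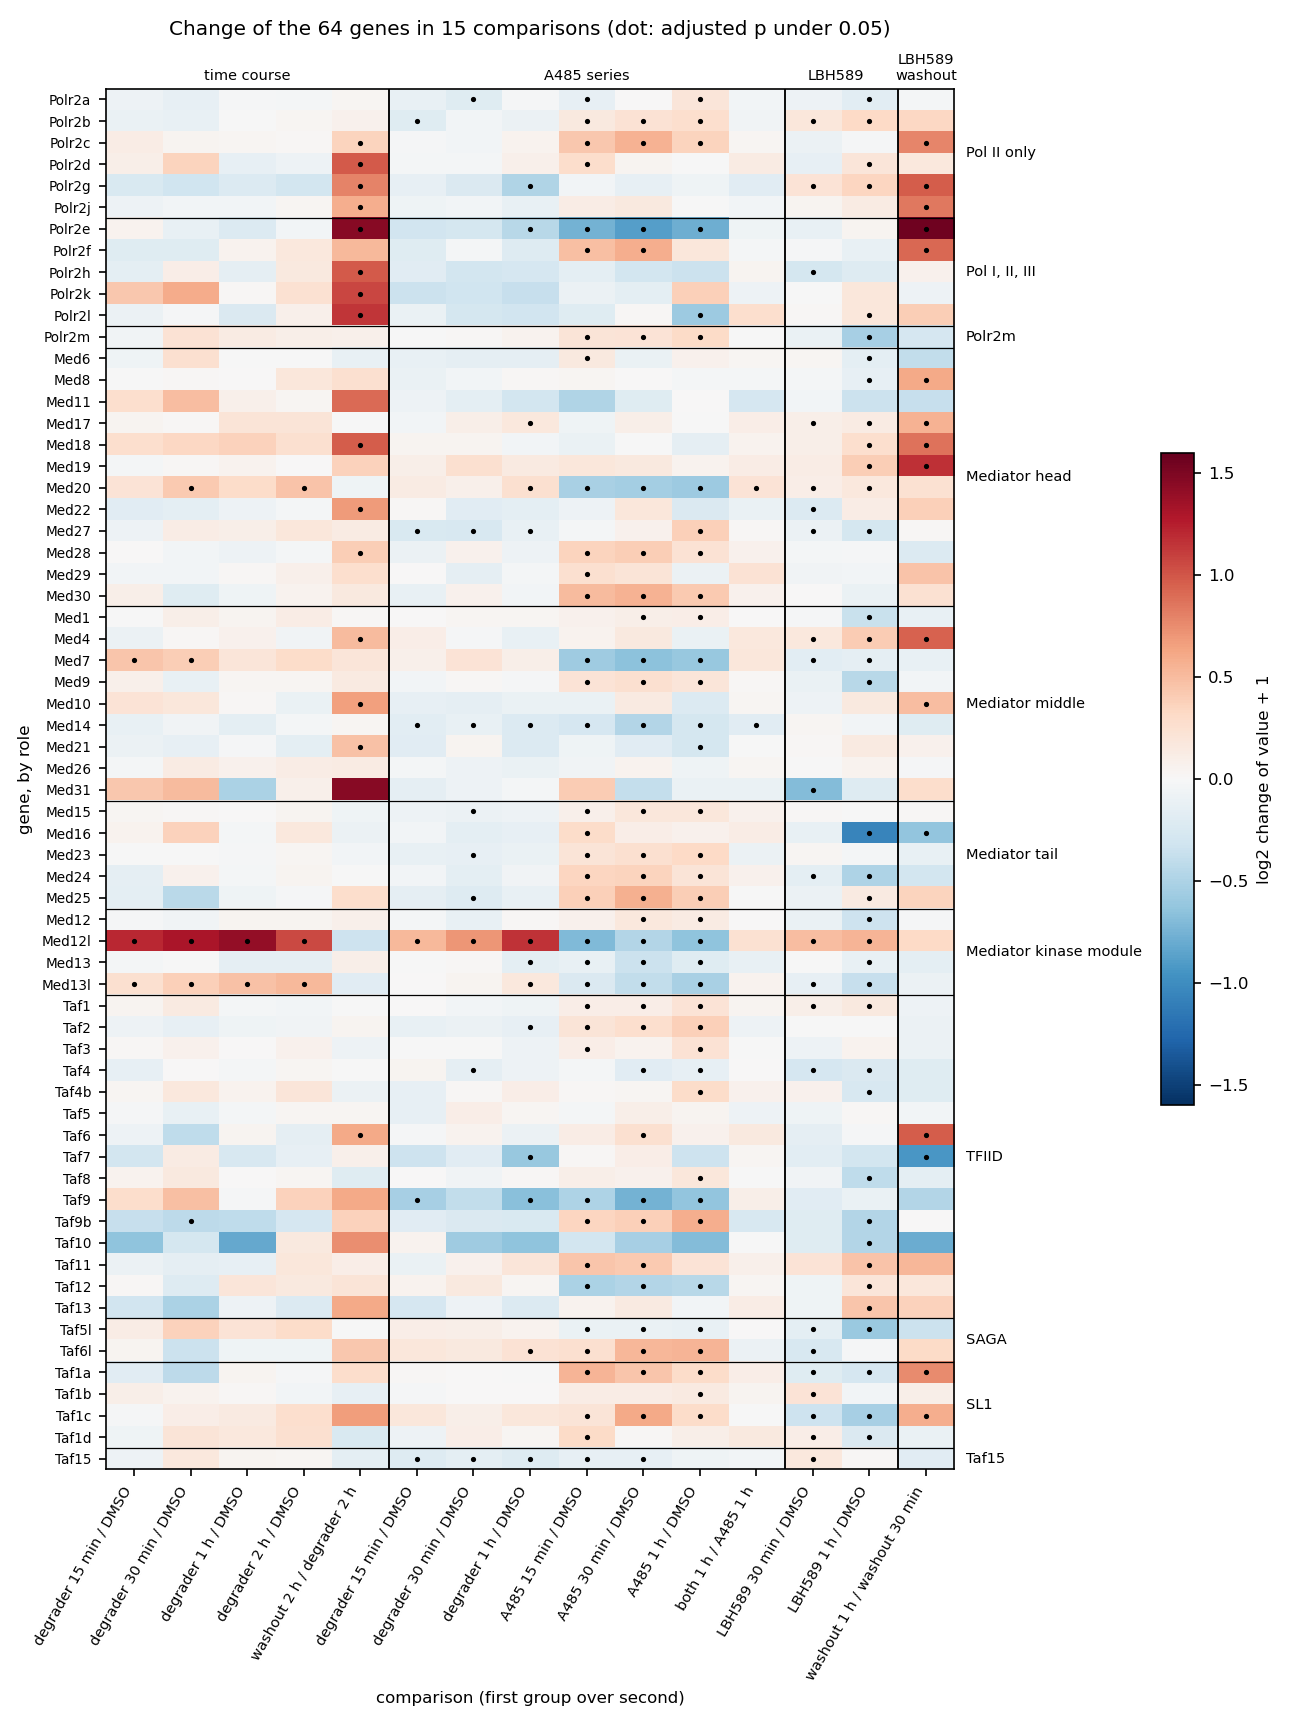
Log2 change of value + 1 (colour) of the 64 genes (rows, by role) in 15 comparisons (columns, first group over second), with a dot where the limma adjusted p is under 0.05. Med12l is red in every column of degrader over DMSO and of LBH589 over DMSO and blue in the 3 columns of A485 over DMSO, and 8 of the 15 dots in the washout 2 h column are polymerase genes.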

How the data were processed

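PRO-seq libraries of 65 samples in 23 groups were deposited in 4 gene tables and 4 tables of dREG sites (putative enhancers), and the gene tables were used here. Per the labels, the deposited signal values are DESeq2-normalized read counts per transcript or site, so they are relative to each table's own size factors, and groups were compared only within a table. Per the submitters' processing notes, the tools were DESeq2 1.46.0, featureCounts 2.0.1, HOMER, bedtools, Bowtie2 2.2.2 and SAMtools 1.16.1, and the builds mm39 and dm3. Parameters, strand use and the role of dm3 are not stated there.

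Each library's smallest step gave back whole reads for 100.0% of values, within a tolerance of 0.1 read, and these served for depth and for edgeR. For the test, each symbol kept its transcript with the highest mean, and symbols with a mean of at least 10 were kept. In R 4.3.3, limma 3.58.1 (lmFit, eBayes with a trend) was fitted to log2(value + 1) with every group of a table in 1 model, and p-values were adjusted (Benjamini-Hochberg) over all genes tested, with a threshold of 0.05. Fold changes on this scale understate the change of genes with few reads. Alternatives were edgeR 4.0.16 quasi-likelihood, a pseudocount of 8, no filter, only the compared groups, a replicate block, and leaving out libraries. Recovery of changed genes was tested on simulated data. The members and lists were chosen with earlier results of these data known. Named genes were 16 anchors given whatever they did, up to 6 members with the largest called rise and up to 6 with the largest called fall in each comparison, and genes that lie in a member's span. Gene spans, neighbours and promoters came from RefSeq (GRCm38.p6), while the files' build is given as mm39, so no coordinate of the files was used. In that reference 32 of the 64 genes overlap another gene, 18 of them a protein-coding one, and reads there may be shared. In the time course gene table, 1 of the 22 library names, that of 2 h washout replicate 3, was not used, since only 21 columns were filled. Samples with the same replicate number were checked for pairing by correlating their deviations from the group means. Only for degrader 1 h against DMSO of the time course was every correlation above 0.1 (0.152, 0.177 and 0.135), and the numbers come from the library names.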

Additional observations from a re-analysis of the deposited data

Results flagged for a closer look

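For 4 genes the response to 1 h of degrader differed by a test of the difference itself when A485 was present (limma interaction on the log2 scale, n = 3 libraries a group). Med12l had an interaction of -0.92, since it changed by 0.24 for both agents over A485 and by 1.16 for degrader over DMSO. Taf9 had an interaction of 0.77, Taf6l of -0.33 and Med15 of 0.15. Taf9 shares its whole span with Ak6, P2ry14 lies in the span of Med12l, and Taf6l overlaps the transcribed pseudogene Gm2518 over 2478 bp. The counts of these genes may include reads of their neighbours, which was not tested. The Med12l call held under each of 19 alternatives. The Med15 call ended with edgeR (adjusted p 0.0537), with only the compared groups in the limma fit (0.069), with the replicate block (0.0563) and in 9 of 12 fits that left out 1 library. The Taf9 call ended with no filter on low values, at a limma adjusted p of 0.0611, and in 7 of those 12 fits, and the Taf6l call ended in 4 of them.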

How the results depend on the processing

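No called change of a single named gene reversed its direction under the settings run, but the balance of calls did not hold. At degrader 15 min of the time course it was 3 higher and 0 lower, and 6 higher and 17 lower without the libraries that stood apart. The median change of the 64 genes there was near 0 and changed sign: it was -0.018, against 0.005 with edgeR and 0.026 without degrader replicate 3. For the count of called genes among the 64, degrader 15 min of the time course moved to 23 without the libraries that stood apart. Degrader 30 min moved to 3 with no filter, to 2 with only the compared groups in the fit, to 3 with the replicate block and to 3 without the libraries of conflicting labels, from 5. The shares of all genes at 30 min fell in these fits as well, from 8.69% higher and 5.17% lower. They were 7.27% and 3.8% with no filter, 7.55% and 3.21% with the replicate block, and 5.79% and 1.42% without the libraries of conflicting labels. Degrader 1 h moved to 12 and degrader 2 h to 10 with only the compared groups, and to 12 and 13 without the libraries that stood apart, from 2 and 3. With only the compared groups, calls over all genes moved too. At 30 min 3.73% were higher and 0.275% lower, at 1 h 13.8% and 13.3%, and at 2 h 14% and 11.3%. Washout 2 h moved to 39 with only the compared groups and to 36 without the libraries that stood apart, from 15. In the A485 series, degrader 15 min moved to 12 with edgeR and to 16 with only the compared groups, from 6. The causes were not tested.

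Leaving out 1 library at a time gave 2 to 5 genes at degrader 15 min, 3 to 12 at 30 min and 3 to 4 at washout 2 h in the time course. In the A485 series it gave 4 to 9 at degrader 30 min, 1 to 3 for both agents over A485 (1 without replicate 2 of both agents) and 1 to 5 for the interaction. It gave 10 to 18 at LBH589 30 min and 9 to 22 in the LBH589 washout. The replicate block left the count at degrader 1 h of the time course at 2. That was the only comparison with every correlation of same-numbered libraries above 0.1, and these correlations were low. For degrader 15 min of the time course they were -0.013, 0.17 and 0.196, so pairing was not established in any comparison. No paired analysis was possible because the washout 2 h columns could not be tied to numbered libraries, and because the groups share fewer than 2 replicate numbers for A485 at 30 min and 1 h and LBH589 at both times. Among the values of single genes under all settings, 5117 kept their side of the threshold, 300 lost a call and 59 gained one. Planned values at dREG sites near the starts of these genes were not run, since the gene tables hold no coordinates and the reference is of another build. Genes with few reads, such as Med11, Med31, Taf7 and Taf10, are limited by depth, and a missed threshold does not show that they did not change.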
